A study of Mus musculus with 5 samples.

Results

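The Dlk1-Dio3 domain is an imprinted stretch of mouse chromosome 12, and the 4 transcripts described here are its protein-coding gene Dlk1 and its noncoding RNAs Meg3, Rian and Mirg. They were taken by symbol, 4 rows of the 18307 in the RefSeq gene table, and all 4 were among the 13829 genes with enough counts to test. The symbols were picked with the caffeine comparison already known, chiefly because Meg3 and Rian stood out in it. Every caffeine-vehicle difference of these genes is therefore given below as a description with its error, and none of their p-values is printed. Calls and counts of members under a threshold are given beside those over all features, and they too are description only. RNA came from heart ventricles of CD-1 mouse embryos at E10.5, CD-1 being an outbred strain. The 3 caffeine libraries came from litters whose dams were injected daily with caffeine at 20 mg/kg from E6.5 to E9.5, and the 2 vehicle libraries from dams that received 0.9% NaCl on the same days. Each library was a pool of ventricles from embryos of the same dams and counts as 1 sample. The labels name no genotype or allele difference between the groups. The counts are not split by parent of origin, so they do not show which allele was expressed, and nothing says that pools of a group came from separate experiments, so errors measure the spread between these pools.

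In an imprinted domain the maternal and paternal copies are expressed unequally. On the paternal chromosome of this domain a methylated control region between Dlk1 and Meg3 goes with expression of the protein-coding genes Dlk1, Rtl1 and Dio3, while the unmethylated maternal copy expresses the noncoding RNAs. Dlk1 encodes a transmembrane protein with EGF-like repeats that belongs to the Notch ligand family and restrains differentiation in several embryonic tissues. Meg3 is a mostly nuclear long noncoding RNA that has been described to bind Polycomb proteins. Rian is the host of a tandem array of C/D box snoRNAs, and Mirg is the host of a large microRNA cluster. The maternal RNAs are thought to be made in large part as 1 long transcription unit that starts at Meg3, and cyclic AMP signalling acts on the Meg3 promoter in cultured cells. Caffeine blocks adenosine receptors and inhibits phosphodiesterases, which break cyclic AMP down.

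All 4 lie on the plus strand (mm10). Dlk1 runs from 109452823 to 109463336, Meg3 from 109540996 to 109571729, Rian from 109603945 to 109661711 and Mirg from 109734981 to 109749457. The starts of Meg3, Rian and Mirg are 88.2, 151.1 and 282.2 kb past that of Dlk1. Both promoter windows of Meg3 are shown because its annotated transcripts, described below one by one, have separate starts. They come from RefSeq on GRCm38.p6, where they lie at chr12:109540746-109541045 and chr12:109545148-109545447, each of 300 bases, most of them before a start. Capitals mark TGACGTCA, the full cyclic AMP response element, and TGCCGC, a hexamer bound by the imprint-protecting factor ZFP57, here on the opposite strand as GCGGCA.
Meg3 upstream start: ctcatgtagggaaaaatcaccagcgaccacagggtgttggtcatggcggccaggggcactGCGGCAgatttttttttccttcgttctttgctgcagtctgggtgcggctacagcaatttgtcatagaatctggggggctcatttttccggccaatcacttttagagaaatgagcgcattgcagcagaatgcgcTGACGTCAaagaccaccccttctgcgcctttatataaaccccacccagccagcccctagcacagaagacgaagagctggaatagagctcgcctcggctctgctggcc
Meg3 downstream start: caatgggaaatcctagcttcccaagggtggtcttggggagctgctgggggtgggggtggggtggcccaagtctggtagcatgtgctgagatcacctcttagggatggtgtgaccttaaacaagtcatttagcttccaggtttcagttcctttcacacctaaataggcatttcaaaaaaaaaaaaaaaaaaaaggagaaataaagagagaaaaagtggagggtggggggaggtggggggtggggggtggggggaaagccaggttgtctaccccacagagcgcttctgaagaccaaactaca

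Matches were sought on both strands in the promoter windows of all 4 genes. The full element TGACGTCA was present in the upstream Meg3 window, its first base 57 bases before the start, and in none of the other 4 windows. It occurred in 1.79% of the 32851 promoter windows of the same length in the mouse RefSeq table. Its core TGACG, which the full element contains on both strands, was found once more, in the Dlk1 window, and occurred in 20.8% of all windows. TGCCGC was present in the upstream Meg3 window alone among the 5, against 11.6% of all windows. The core motif of the insulator protein CTCF was in none of the 5 and in 0.0365% of all windows. The Dlk1 window belongs to a start 632 bases before that of NM_010052, the transcript that held nearly all Dlk1 counts. A match says that these letters are there, and binding was not measured.

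The noncoding members span microRNA genes, a selection of which is shown for what these RNAs carry, with the seed (bases 2 to 8) in capitals. The first pair lies in the Meg3 row, the next pair in the Rian row and the rest in the Mirg row, all from RefSeq on GRCm38.p6. In all, the table places 3 mature microRNAs inside the Meg3 row, 6 inside Rian and 19 inside Mirg, with 77 more mature names on the same strand between these rows.
miR-770-5p: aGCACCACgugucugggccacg
miR-770-3p: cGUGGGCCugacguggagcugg
miR-341-3p: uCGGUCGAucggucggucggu
miR-370-3p: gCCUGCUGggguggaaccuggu
miR-453: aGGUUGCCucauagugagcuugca
miR-496a-5p: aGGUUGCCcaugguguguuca
miR-410-5p: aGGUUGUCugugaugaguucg
miR-410-3p: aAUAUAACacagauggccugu
miR-377-3p: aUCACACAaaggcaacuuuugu
miR-154-3p: aAUCAUACacgguugaccuauu

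In the Mirg row miR-453 and miR-496a-5p have the same seed, GGUUGCC, and miR-410-5p has the seed GGUUGUC, which it shares with miR-494-5p of the stretch between Rian and Mirg. Mature microRNAs were not measured by these libraries, and the rows of the host RNAs are no estimate of them. The microRNA rows Mir433 and Mir410 held at most 1 count in any library.

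Meg3 and Rian were higher in every caffeine library than in both vehicle libraries, and so was Mirg with far fewer counts, whereas Dlk1 overlapped between the groups. Values are in CPM, counts scaled to a common library total after TMM (which matches the bulk of genes between libraries). Meg3 had 37.8, 25.9 and 42.4 CPM in caffeine replicates 1, 2 and 3, against 7.29 and 12.2 CPM in vehicle replicates 1 and 2. The lowest caffeine library had 2.12 times the level of the highest vehicle library. Mean Meg3 was 35.4 ± 8.53 CPM in caffeine (SD, n = 3) and 9.75 ± 3.48 CPM in vehicle (SD, n = 2), and edgeR gave a caffeine-to-vehicle log2 fold change of 1.86 (SE 0.28). Both groups varied widely, with a coefficient of variation of 24.1% in caffeine and 35.6% in vehicle.

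Rian differed less between the groups and was the most even of the noncoding members. It had 53.9, 57.2 and 59.7 CPM in caffeine replicates 1, 2 and 3, against 32.2 and 39.4 CPM in vehicle replicates 1 and 2. The caffeine libraries lay within a factor of 1.11 of each other, and the lowest of them was 1.37 times the highest vehicle library. The means were 56.9 ± 2.92 CPM in caffeine (SD, n = 3) and 35.8 ± 5.14 CPM in vehicle (SD, n = 2), and the log2 fold change was 0.67 (SE 0.15).

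Mirg was near the lower end of the tested genes, with 36, 35 and 47 counts in the caffeine libraries and 13 and 23 counts in the vehicle libraries. In CPM it had 1.5, 1.5 and 2.13 in caffeine and 0.536 and 1.05 in vehicle. The groups did not overlap. The lowest caffeine library had 1.43 times the level of vehicle replicate 2, which itself had 1.96 times the level of vehicle replicate 1. Mean Mirg was 1.71 ± 0.366 CPM in caffeine (SD, n = 3) and 0.792 ± 0.362 CPM in vehicle (SD, n = 2). Its log2 fold change was 1.11 (SE 0.40), 0.70 without vehicle replicate 1 and 1.64 without vehicle replicate 2.

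Dlk1, the paternally expressed member, had 64.6, 48.7 and 51.2 CPM in caffeine replicates 1, 2 and 3, against 53.9 and 41.5 CPM in vehicle replicates 1 and 2. Vehicle replicate 1 lay above 2 of the 3 caffeine libraries. The means were 54.8 ± 8.52 CPM in caffeine (SD, n = 3) and 47.7 ± 8.79 CPM in vehicle (SD, n = 2), and the log2 fold change was 0.20 (SE 0.17). Without vehicle replicate 1 it was 0.40, and without vehicle replicate 2 it was -0.001. In vehicle the order of the libraries was reversed between Dlk1 and the noncoding members: replicate 1 had more Dlk1 and less Meg3, Rian and Mirg than replicate 2.

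**Figure D1:**
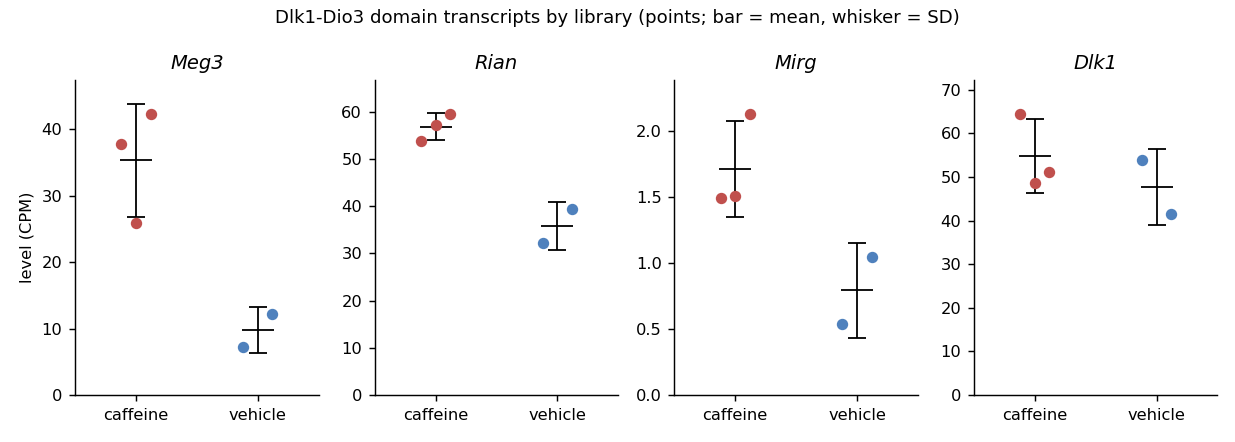
Level in CPM (y axis, from 0) of Meg3, Rian, Mirg and Dlk1 in each caffeine and vehicle library; points are libraries, the bar is the mean and the whisker the SD (n = 3 caffeine, n = 2 vehicle). The caffeine points of Meg3, Rian and Mirg all sit above the vehicle points, and those of Dlk1 overlap with them.

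With edgeR, 0 of the 4 members passed FDR 0.05 (a false discovery rate adjusted over all genes), where 0.00723% of the 13829 genes did. With an unadjusted p under 0.05 there were 3 of the 4, against 719 genes in all. DESeq2 passed Meg3 and Rian, both as higher in caffeine, where it passed 0.13% of genes in either direction and 0.0651% as higher. With limma-voom 0 of the 4 passed. All caffeine libraries lay above both vehicle libraries for 3 of the 4 members, and for 11.2% of all genes tested. They lay below both for 0 of the 4 members and for 9.27% of all genes. The median log2 fold change was 0.89 over the 4 members and 0.01 over all genes tested. Since the members were chosen on this contrast, nothing follows from these counts. In bulk RNA from pooled ventricles, more cells that express a gene and more RNA per cell cannot be told apart.

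**Figure D2:**
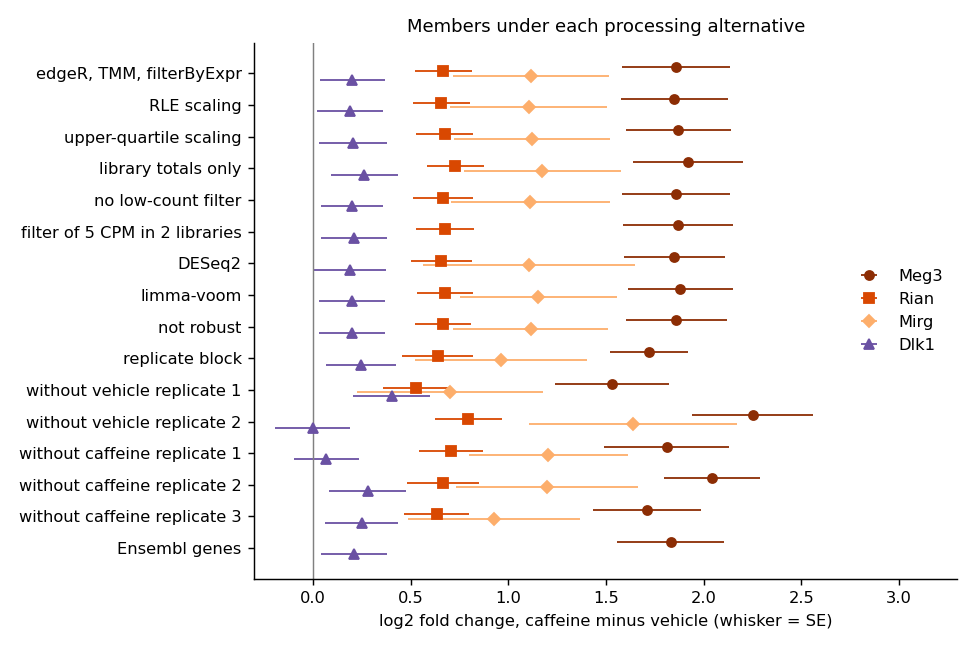
Log2 fold change, caffeine minus vehicle, on the x axis for Meg3, Rian, Mirg and Dlk1 in the edgeR fit (top line) and under each alternative scaling, filter, tool, annotation or left-out library; whiskers are SE. Meg3 stays between 1.53 and 2.25, Rian between 0.53 and 0.80 and Mirg between 0.70 and 1.64, while Dlk1 runs from -0.001 to 0.40.

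Ratios within a library do not depend on how libraries are scaled. The CPM ratio of Meg3 to Rian was 0.702, 0.453 and 0.71 in caffeine replicates 1, 2 and 3, against 0.227 and 0.31 in vehicle replicates 1 and 2. It averaged 0.622 ± 0.146 in caffeine (SD, n = 3) and 0.268 ± 0.0586 in vehicle (SD, n = 2), without overlap. Of the summed CPM of the noncoding members, which is not per length, Meg3 held 40.6%, 30.6% and 40.7% in caffeine and 18.2% and 23.2% in vehicle. Rian held 57.8%, 67.6% and 57.3% in caffeine and 80.4% and 74.8% in vehicle. The ratio of Meg3 to Dlk1, 1 RNA from each parental side, was 0.585, 0.531 and 0.828 in caffeine and 0.135 and 0.295 in vehicle, again without overlap. The ratio of Rian to Dlk1 overlapped, with 0.834, 1.17 and 1.17 in caffeine and 0.597 and 0.952 in vehicle. The ratio of Mirg to Rian overlapped as well, at 0.0278, 0.0263 and 0.0357 in caffeine and 0.0167 and 0.0266 in vehicle. That of Mirg to Meg3 was lower in every caffeine library, at 0.03956, 0.05814 and 0.05032, against 0.07345 and 0.08583 in vehicle.

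The RefSeq transcript table splits Meg3 into 4 transcripts with a pair of starts. NR_003633 starts 4402 bases downstream of the other 3 and ends at 109568600. It had 17.7, 11.2 and 17.8 CPM in caffeine, against 4.28 and 7.21 CPM in vehicle (log2 fold change 1.44, SE 0.32). NR_027652, which has the upstream start and reaches the 3' end of the gene, had 12.7, 10.1 and 12.8 CPM in caffeine, against 2.22 and 4.76 CPM in vehicle (1.77, SE 0.35). NR_046475, with the same start and end, had 7.34, 4.45 and 11.9 CPM in caffeine, against 0.781 and 0.181 CPM in vehicle (4.0, SE 0.67), the vehicle values resting on 19 and 4 counts. In each of these 3 transcripts all caffeine libraries lay above both vehicle libraries, as they did for 12.2% of the 18418 transcripts tested. NR_027651 held no counts in any library.

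The transcripts annotated with the upstream start held a larger share of the estimated Meg3 counts in every caffeine library. They made up 53.2%, 56.5% and 58.2% in caffeine replicates 1, 2 and 3, against 41.3% and 40.6% in vehicle replicates 1 and 2. The 2 of them with counts also differ from NR_003633 in their 3' end, so a share by start and a share by 3' end cannot be told apart here. The means were 56% ± 2.52 in caffeine (SD, n = 3) and 40.9% ± 0.53 in vehicle (SD, n = 2). NR_046475 also held a larger share in every caffeine library, at 19.4%, 17.3% and 28% of Meg3 in caffeine and 10.6% and 1.46% in vehicle. The share of NR_027652 overlapped, at 33.8%, 39.2% and 30.2% in caffeine and 30.7% and 39.1% in vehicle. Reads in exons that transcripts have in common were divided by the authors' estimation, and its error is not in these spreads. No RefSeq transcript passed FDR 0.05 with edgeR, the only tool run on transcripts. With an unadjusted p under 0.05 there were 1355 of 18418, 5 of the 8 tested member transcripts among them. The Meg3 transcripts divide the same reads, and the single transcripts of Rian and Mirg repeat the counts of their gene rows. As the members were chosen on this contrast, nothing follows from this count either.

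**Figure D3:**
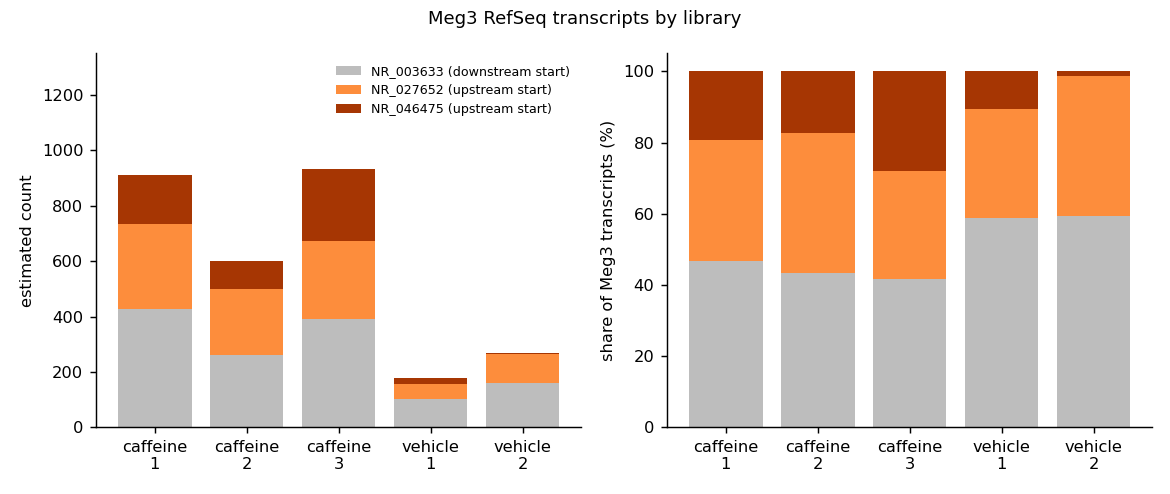
Estimated counts (left, y axis) and share of Meg3 in percent (right, y axis) of the 3 RefSeq transcripts of Meg3 with counts, stacked for each caffeine and vehicle library. The grey part, NR_003633 with the downstream start, is 41.8% to 46.8% of each caffeine bar and 58.7% to 59.5% of each vehicle bar.

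Antisense annotation bears on the Meg3 count, since no source used here says whether counting used strand. GENCODE M21 on GRCm38 places Gm26906, a noncoding RNA of the minus strand, at 109568628 to 109571723, and all 3096 of its bases lie on Meg3 exons. NR_003633 ends 28 bases before it, so its annotated span lies outside the antisense gene, while NR_027652 and NR_046475 run over it. The part of antisense reads in the shares by transcript was not tested. In RefSeq on GRCm38.p6 the minus-strand gene Rtl1 reaches from 109564900 to 109604418, over the last 6830 bases of the Meg3 row and the first 474 of the Rian row. For Rian, Mirg and Dlk1 GENCODE lists no antisense gene other than microRNAs. Inside Rian it lists 13 snoRNA genes.

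Dlk1 was held almost wholly by NM_010052, between 96.4% and 99.4% of its counts in every library. It had 62.9, 46.8 and 50.9 CPM in caffeine, against 52.1 and 40.8 CPM in vehicle. The other 4 Dlk1 transcripts had at most 24.3 estimated counts in any library, and none separated the groups. Levels per length could be set side by side for 1 transcript each of Meg3 and Mirg, those that the GENCODE cross-references to RefSeq pair with a transcript whose ends also lay within 10 bases. NR_027652 of Meg3 (1896 bases) had a level of 6.27 ± 0.81 CPM per kb in caffeine (SD, n = 3) and 1.84 ± 0.948 in vehicle (SD, n = 2), and NR_028265 of Mirg (1300 bases) had 1.31 ± 0.283 CPM per kb in caffeine and 0.607 ± 0.277 in vehicle.

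The Ensembl tables list Meg3 and Dlk1, and Rian and Mirg were not analysed there. Meg3 had 43.5, 29.4 and 46.7 CPM in caffeine, against 8.47 and 14 CPM in vehicle (log2 fold change 1.83, SE 0.27). Dlk1 had 61.2, 46.2 and 48.6 CPM in caffeine, against 50.8 and 39 CPM in vehicle (0.21, SE 0.17). Of the 15440 Ensembl genes tested, 0.013% passed FDR 0.05, none of them a member, and 11.9% had all caffeine libraries above both vehicle libraries, as Meg3 did. DESeq2 and limma-voom were not run on the Ensembl genes. Of the 11 Ensembl transcripts of Meg3, 8 averaged at least 10 estimated counts, and in all 8 every caffeine library lay above both vehicle libraries. Among the 32964 Ensembl transcripts with that average, 17.1% lay above in this way and 12.4% below. Transcripts of 1 gene divide the same reads, so the 8 are not separate observations. Of the 10 of Dlk1, 4 averaged that much, 1 with all caffeine libraries above and 1 with all below. The transcript above was Dlk1-008, which held 2.34%, 4.37% and 4.29% of Dlk1 in caffeine and 0.779% and 0.0873% in vehicle. The transcript below was Dlk1-003, which held 15.6%, 21.4% and 13.1% of Dlk1 in caffeine and 23.8% and 26.1% in vehicle.

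The rest of the domain was almost silent in these ventricles. Dio3, whose enzyme inactivates thyroid hormone, had 0, 3 and 1 counts in the caffeine libraries and 2 and 5 in the vehicle libraries. Its antisense neighbour Dio3os had at most 2 counts. Rtl1, a retrotransposon-derived gene of placenta and muscle, had 7, 12 and 5 counts in caffeine and 7 and 10 in vehicle (log2 fold change -0.10, SE 0.56). The row 6430411K18Rik, which lies opposite to Rtl1, had 5, 1 and 5 counts in caffeine and 0 and 0 in vehicle, too few to test. Reads of that pair cannot be told apart without strand.

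Genes flanking the domain had log2 fold changes between -0.40 and 0.59. Of 24 rows that start within 1 Mb outside it, 20 were tested, 12 with a positive and 7 with a negative log2 fold change, and their median was 0.04. The extremes were Slc25a47, a mitochondrial carrier, at 0.59 (SE 0.42) and Hsp90aa1, a stress-inducible chaperone, at -0.40 (SE 0.14). No flanking gene passed FDR 0.05 with edgeR, DESeq2 or limma-voom. An unadjusted p under 0.05 was found for 2 of the 20, and for 719 of all 13829 genes tested. All caffeine libraries lay above both vehicle libraries for 2 of the 20 and below for 2, where 11.2% and 9.27% of all genes did. Begain, the nearest tested gene before Dlk1, had 2.04, 1.98 and 3.31 CPM in caffeine, against 1.81 and 2.1 CPM in vehicle.

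**Figure D4:**
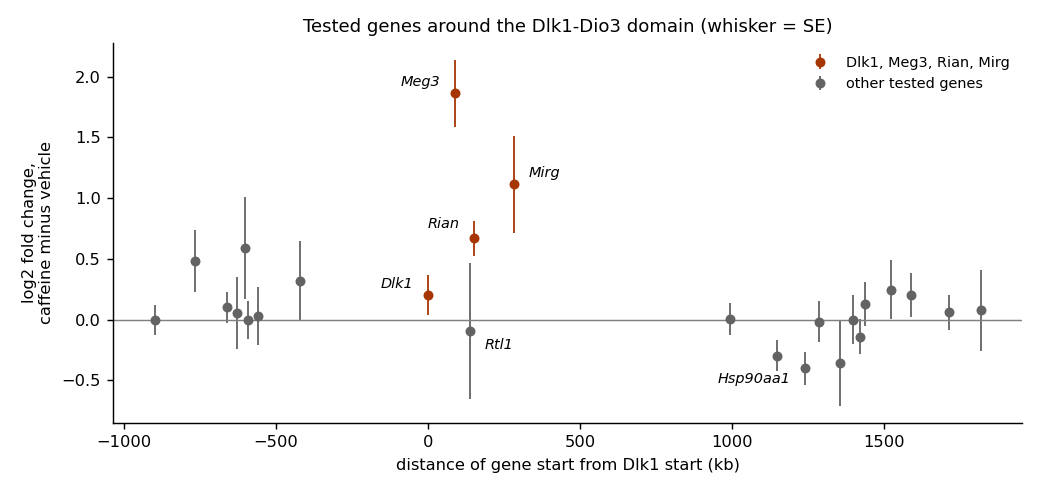
Log2 fold change, caffeine minus vehicle, on the y axis for each tested gene within 1 Mb of the domain, against the distance of its start from the Dlk1 start in kb; whiskers are SE. Meg3 at 1.86, Mirg at 1.11 and Rian at 0.67 lie above the flanking genes, which run from -0.40 to 0.59, while Rtl1 at -0.10 and Dlk1 at 0.20 lie among them.

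Genes whose pattern over the 5 libraries came closest to each member were found by the distance between log2 CPM values, each centred on the gene's mean, among 11984 genes above a low level. The values were not scaled, so genes that order the libraries alike can stand far apart if their differences are of unlike size. Nearest to Meg3 was 6720401G13Rik, a noncoding RNA of the X chromosome, at a distance of 0.34, where the median gene was at 2.19. It had 25.7, 23.1 and 37 CPM in caffeine, against 6.43 and 11 CPM in vehicle. The next were Mir17hg, the host RNA of a microRNA cluster on chromosome 14, at 0.66, Gm10052 at 0.77, Lime1 at 0.80 and the myosin gene Myh7b at 0.84. Mirg stood at 0.96 from Meg3 and Rian at 1.44, with 8 and 77 other genes nearer, while 2716 genes were nearer than Dlk1 at 2.04. Seen from Rian, whose median gene was at 0.84, 11789 genes were nearer than Meg3 and 2034 were nearer than Mirg at 0.66. Seen from Mirg, 364 genes were nearer than Meg3 and 57 nearer than Rian. Nearest to Rian were Zfp276 (0.04), Paxbp1 (0.10) and Dgkq (0.13). Nearest to Mirg were Lime1 (0.31), Lrp3 (0.33) and the pseudogene Tmem181b-ps (0.37), and nearest to Dlk1 were Trim47 (0.07), Pacsin3 (0.08) and Trpt1 (0.09). With 5 libraries many genes match any pattern closely, and a small distance says only that the values lie side by side.

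Other noncoding RNAs that stay in the nucleus or host snoRNAs were described as a list beside the members. Of its 14 tested genes 11 had a positive log2 fold change, and the median was 0.35. Over all genes tested 52.9% were positive and the median was 0.01. All caffeine libraries lay above both vehicle libraries for 6 of the 14 and below for 2, Kcnq1ot1 and Tug1. The shares of all genes are the 11.2% and 9.27% given above. The summed level of the list overlapped, with 380.9, 431.6 and 427.2 CPM in caffeine and 314.4 and 445.9 CPM in vehicle. The list had 0 genes past FDR 0.05 with edgeR and limma-voom, 1 with DESeq2, and 6 with an unadjusted p under 0.05. Of all genes tested, DESeq2 passed 0.13%, and 719 of 13829 had an unadjusted p under 0.05. Snhg5, a snoRNA host, had 10.9, 10.1 and 11.1 CPM in caffeine, against 4.41 and 5.69 CPM in vehicle (log2 fold change 1.08, SE 0.20). Neat1, the scaffold of nuclear paraspeckles, had 1.99, 1.76 and 2.41 CPM in caffeine, against 0.659 and 0.683 CPM in vehicle (1.60, SE 0.36). Gas5, another snoRNA host, had 26.5, 31.4 and 28.6 CPM in caffeine, against 20.2 and 17.8 CPM in vehicle (0.60, SE 0.15).

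Measures of RNA composition also separated the groups. The ribosomal RNA precursor Rn45s had 1683, 2724 and 2672 CPM in caffeine, against 8910 and 5303 CPM in vehicle. The list of RNA-quality genes that holds it had 3 tested members, Rn45s, Lars2 and Rmrp, all with every caffeine library below both vehicle libraries (0 past FDR 0.05 with edgeR and limma-voom, 2 with DESeq2, 3 with an unadjusted p under 0.05). Of all genes tested, 9.27% lay below in this way, DESeq2 passed 0.13%, and 719 of 13829 had an unadjusted p under 0.05. Its summed level was 1815 to 2904 CPM in caffeine and 5598 to 9398 CPM in vehicle, and no listed gene was at 0 in every library. The vehicle library with the most Rn45s, replicate 1, had the least Meg3, Rian and Mirg. Within caffeine, replicate 1 had the least Rn45s and also the lowest Rian, while its Meg3 lay between those of the other libraries. Its Mirg was level with that of caffeine replicate 2, at 36 and 35 counts. The part of this in the values of the members was not tested.

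**Figure D5:**
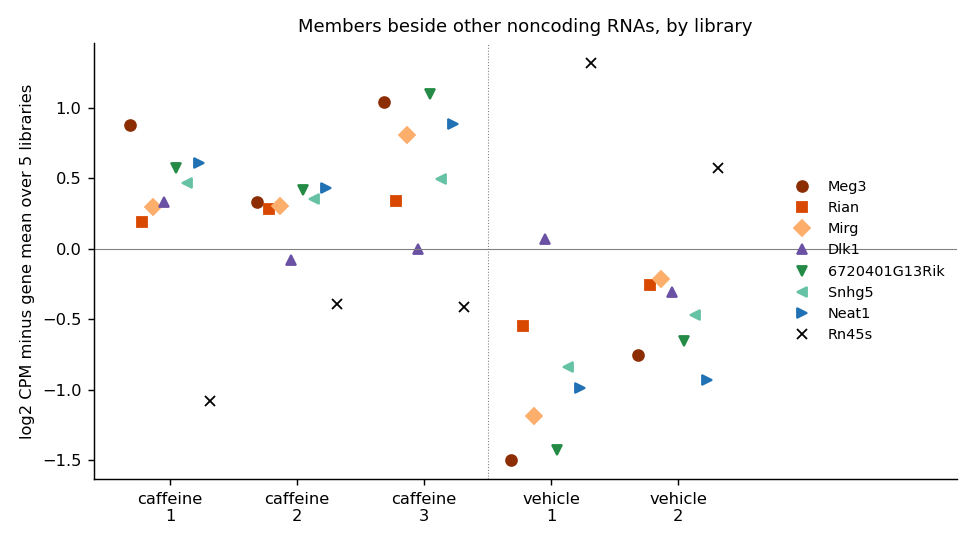
Log2 CPM minus the gene's mean over the 5 libraries (y axis) for the 4 members, the noncoding RNAs 6720401G13Rik, Snhg5 and Neat1, and Rn45s, in each caffeine and vehicle library. Meg3, Rian, Mirg and the other 3 noncoding RNAs are above 0 in all caffeine libraries and below 0 in both vehicle libraries, Rn45s is the reverse, and Dlk1 crosses 0 within both groups.

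Of the cardiomyocyte markers that define the labelled tissue, 14 of 14 were detected in every library. They summed to 37150, 37230 and 36460 CPM in caffeine and 44390 and 40380 CPM in vehicle, so every caffeine library lay below both vehicle libraries, and the part of this in the values of the members was not tested. Cell types known for Meg3 or Dlk1 were looked at beside it. Markers of hepatic and yolk sac endoderm, where Dlk1 is abundant in the embryo, summed to 74.7, 48.3 and 21.6 CPM in caffeine and 27.7 and 185.7 CPM in vehicle, with 14 to 16 of 16 detected. Neural markers summed to 17.9, 32.3 and 40.5 CPM in caffeine and 28.5 and 28.8 CPM in vehicle (8 to 9 of 9 detected), and markers of somites and skeletal muscle to 3.07, 1.8 and 2.54 CPM in caffeine and 2.06 and 2.19 CPM in vehicle (2 to 5 of 8 detected). Mesenchymal and epicardial markers summed to 2254 to 2716 CPM in caffeine and 2258 to 2665 CPM in vehicle, endothelial markers to 1367 to 1604 CPM in caffeine and 1541 to 1563 CPM in vehicle, and erythroid markers to 7735 to 12180 CPM in caffeine and 7215 to 12560 CPM in vehicle. For the lists other than the cardiomyocyte one the summed levels overlapped, and no marker was at 0 in every library. Log2 fold changes were positive for 4 of 14 tested cardiomyocyte, 2 of 9 endothelial and 10 of 13 mesenchymal and epicardial markers. They were positive for 1 of 13 hepatic and yolk sac, 9 of 10 erythroid and 3 of 6 neural markers. The 1 tested somite marker was positive, as were 52.9% of all genes. All caffeine libraries lay below both vehicle ones for 6 cardiomyocyte markers and above for 0, against 9.27% and 11.2% of all genes. Each other list had at most 1 either way.

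Genes that act with DLK1 in Notch signalling showed no common shift. Of 26 tested, 17 had a positive and 9 a negative log2 fold change, with a median of 0.03. Over all genes tested 52.9% were positive and the median was 0.01. All caffeine libraries lay above both vehicle libraries for 4 of the 26 and below for 3, where 11.2% and 9.27% of all genes did. With edgeR, DESeq2 or limma-voom 0 passed FDR 0.05. Where 719 of all 13829 genes tested had an unadjusted p under 0.05, 1 of the 26 did. That gene was Maml2, a transcriptional coactivator of Notch, with 25, 23 and 21.3 CPM in caffeine, against 29.2 and 34.2 CPM in vehicle (log2 fold change -0.46, SE 0.15). The fringe enzyme gene Rfng had a log2 fold change of 0.28 (SE 0.17) and the receptor gene Notch3 one of 0.24 (SE 0.16).

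Of 20 tested genes that set or guard imprints, 6 had a positive and 14 a negative log2 fold change, with a median of -0.02. Over all genes tested 52.9% were positive and the median was 0.01. By the same 3 tools 0 passed. Where 719 of all 13829 genes tested had an unadjusted p under 0.05, 1 of the 20 did. It was Zfp57, whose protein keeps the methylation of imprinting control regions, with 26.7, 26.3 and 28.7 CPM in caffeine, against 19.9 and 19.9 CPM in vehicle (log2 fold change 0.45, SE 0.14). Its groups did not overlap. All caffeine libraries lay above both vehicle libraries for 1 of the 20 and below for 1, where 11.2% and 9.27% of all genes did. The chromatin protein gene Smchd1 had -0.29 (SE 0.18) and the deacetylase gene Hdac2 -0.17 (SE 0.14).

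Imprinted genes elsewhere in the genome were spread around 0. Of 27 tested, 13 were positive and 14 negative, the median was -0.02, and 0 passed by any of the 3 tools. An unadjusted p under 0.05 was found for 2, and for 719 of all 13829 genes tested. For none of the 27 did all caffeine libraries lie above both vehicle libraries, and for 4 they lay below. Of all genes tested 11.2% lay above and 9.27% below. Kcnq1ot1, the paternally expressed noncoding RNA of another imprinted domain, had 6.31, 5.46 and 5.49 CPM in caffeine, against 7.79 and 12.9 CPM in vehicle (log2 fold change -0.84, SE 0.23). Snrpn had -0.34 (SE 0.15) and Airn, a further imprinted noncoding RNA, 0.31 (SE 0.20).

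Genes that answer to cyclic AMP had mostly positive log2 fold changes, with a median of 0.06. Of 16 tested, 14 were positive and 2 negative, where 52.9% of all genes tested were positive. All caffeine libraries lay above both vehicle libraries for 2 and below for 0, against 11.2% and 9.27% of all genes. The summed level overlapped, with 513.4, 411.8 and 458.5 CPM in caffeine and 426.7 and 448.8 CPM in vehicle. A part of cyclic AMP in the values of the members was not tested. By the same tools 0 passed. An unadjusted p under 0.05 was found for 1, and for 719 of all 13829 genes tested. Nr4a1, a nuclear receptor gene, had 21.8, 18.3 and 19.3 CPM in caffeine, against 15 and 15.4 CPM in vehicle (log2 fold change 0.38, SE 0.16). The clock gene Per1 had 0.22 (SE 0.15) and the phosphatase gene Dusp1 0.20 (SE 0.16).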

How the data were processed

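Gene and transcript counts of 5 libraries were used. The authors deposited estimated counts, not scaled between libraries, on RefSeq and Ensembl release 71 annotations, per the file headers. TopHat, Partek, mm10 and GRCm38 are named in the submitters' processing notes, without versions. Totals of RefSeq genes were 21713381 to 25048134 counts per library.

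Estimated counts were rounded, filtered with filterByExpr, scaled by TMM (factors 0.97 to 1.02) and fitted with edgeR 4.0.16 (R 4.3.3; glmQLFit, robust, glmQLFTest), the two-sided p-values being adjusted by the Benjamini-Hochberg method over every feature tested, with a threshold of 0.05. The SE is the size of the log2 fold change (caffeine minus vehicle) over the square root of F. DESeq2 1.42.0 and limma-voom (limma 3.58.1) were alternatives. The fit was tested on simulated data. The RNA selection of the kit is not given here by any source, nor whether counting used strand.

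The members and lists were chosen with earlier results of these data known. Named genes were the members, the extreme flanking genes, up to 3 genes of smallest p per list described and the nearest in pattern (log2 of CPM plus 0.1, centred), and other domain rows are named for completeness. For markers only sums and counts over each list are given.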

Additional observations from a re-analysis of the deposited data

How the results depend on the processing

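The log2 fold changes of Meg3 and Rian, and of Mirg wherever it could be fitted, were positive under every alternative run. Leaving out 1 library in turn, Meg3 ran from 1.53 to 2.25, Rian from 0.53 to 0.80, Mirg from 0.70 to 1.64 and Dlk1 from -0.001 to 0.40, the outer values of each coming from the fits without vehicle replicate 1 or 2, where the remaining vehicle library is assumed to vary like the caffeine ones. Of the members, 0 to 1 passed FDR 0.05 in these fits (Meg3 without caffeine replicate 2), 2 with DESeq2 (Meg3 and Rian) and 1 with the replicate block (Meg3). Over all RefSeq genes 0 to 18 passed when 1 library was left out (0 without vehicle replicate 1, 8 without vehicle replicate 2, 18 without caffeine replicate 1, 2 without caffeine replicate 2), 6 with no low-count filter, 18 with DESeq2 and 2 on Ensembl genes, against 1 in the edgeR fit of the report. With the replicate number as a block 52 genes passed. The numbers pair only replicates 1 and 2, and the labels give no more than a number, so they are not taken as pairs. Across genes the same-numbered libraries deviated together at r = -0.025 and 0.162, and vehicle replicate 1 with caffeine replicate 3 at 0.151. With 2 vehicle libraries the deviations of 1 mirror those of the other, so these values cannot decide on pairing. Mirg did not pass the filter of 5 CPM in 2 libraries, and Rian and Mirg have no Ensembl value here. The median log2 fold change of all genes was 0.07 with library totals only and 0.01 with TMM. The causes of these shifts were not tested. With 2 vehicle libraries, and 13 to 47 counts for Mirg, the depth and number of pools limit what these values can show.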
